A study of Mus musculus with 9 samples.

Results

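The mammalian circadian clock is described here through 10 genes, followed in hippocampal synaptoneurosomes of Fmr1 knockout mice. They are Arntl (also called Bmal1), Clock, Per1, Per2, Per3, Cry1, Cry2, Nr1d1 (Rev-erb alpha), Nr1d2 (Rev-erb beta) and Dbp. They were set by name as core genes of the clock, with earlier results of these data known, and each was found by its Ensembl identifier without the version number. All 10 were among the 22255 genes of the deposited table, and all 10 were among the 14512 genes that passed a filter on low counts and were tested.

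Synaptoneurosomes are a fraction of homogenized tissue enriched in pinched-off synaptic terminals. All 9 samples, controls included, came from C57Bl/6J mice with the Fmr1 KO genotype, a mouse model of fragile X syndrome. The AM6545 group (4 samples, replicates A, B, C and E) had been given AM6545, which blocks the cannabinoid receptor CB1 and enters the brain poorly, in a sub-chronic course. The vehicle group (5 samples, replicates A to E) had been given vehicle, and wild-type mice are not analysed here. Dose, age, sex, and the hour at which tissue was taken are not given in the sources used here. A sample's place in the day is therefore not known, and its transcripts give only an indirect reading of it. The labels do not say whether samples came from separate animals, so p-values measure the spread between these samples, which may be partly technical.

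The clock is a loop of transcription factors that runs in nearly every cell. ARNTL and CLOCK bind DNA together and switch on the Per, Cry, Nr1d and Dbp genes; PER and CRY proteins then block ARNTL and CLOCK, while the NR1D receptors repress Arntl itself. In tissues with a running clock, Arntl RNA therefore peaks at the opposite time of day from Nr1d1, Dbp and the Per genes, and the ratio of Dbp to Arntl is a reading of clock phase. In the hippocampus the same loop runs beside the synaptic activity of neurons, which can itself induce Per1 and Per2.

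No clock gene passed the threshold between AM6545 and vehicle. The spread of each within groups was ordinary, at percentiles 28.2 to 61.5 of all genes tested. The highest sample of a gene exceeded the lowest by 1.36-fold for Cry1, the smallest span, to 1.60-fold for Nr1d1, the widest. Nr1d1, a repressor of Arntl, was the member whose groups did not overlap: it averaged 67.7 ± 4.61 CPM with AM6545 (SD, n = 4) and 57.0 ± 6.85 CPM with vehicle (SD, n = 5). That difference did not pass the threshold over all genes. Groups that did not overlap, with AM6545 higher, were seen for 0.579% of all genes tested. With each sample's trends with transcript length and GC content removed, the groups of Nr1d1 overlapped. Levels in CPM are counts scaled by library size with edgeR's TMM factors.

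Some of these genes carry, around their transcript starts, motifs that clock factors are known to bind. Promoter windows of 250 bases before to 50 bases after the transcript start were taken from RefSeq (GRCm38.p6), and 9 of the 10 members matched, with 13 windows in all; Per2 did not match. Both strands of each window were searched for 5 motifs. They were the E-box CACGTG and its variant CACGTT (E′-box), both bound by ARNTL and CLOCK, the D-box TTATGTAA bound by DBP, the core TAGGTCA bound by NR1D and ROR receptors, and the core TGACGT of the element bound by CREB, a factor activated by neuronal activity. Each of 4 windows is shown because it holds 1 of the first 4 kinds of motif; capitals mark the motif, and each window is written 5′ to 3′ on the strand of its gene. The windows are Arntl at chr7:113207261-113207560 (plus strand), Nr1d1 at chr11:98775328-98775627 (minus strand), Per1 at chr11:69098699-69098998 (plus strand) and Per3 at chr4:151044616-151044915 (minus strand).
Arntl: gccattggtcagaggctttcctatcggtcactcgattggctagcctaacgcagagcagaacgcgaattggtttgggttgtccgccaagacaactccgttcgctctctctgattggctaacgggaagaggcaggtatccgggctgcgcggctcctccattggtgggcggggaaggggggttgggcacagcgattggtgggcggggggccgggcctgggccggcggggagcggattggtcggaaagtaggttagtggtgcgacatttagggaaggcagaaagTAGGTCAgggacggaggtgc
Nr1d1: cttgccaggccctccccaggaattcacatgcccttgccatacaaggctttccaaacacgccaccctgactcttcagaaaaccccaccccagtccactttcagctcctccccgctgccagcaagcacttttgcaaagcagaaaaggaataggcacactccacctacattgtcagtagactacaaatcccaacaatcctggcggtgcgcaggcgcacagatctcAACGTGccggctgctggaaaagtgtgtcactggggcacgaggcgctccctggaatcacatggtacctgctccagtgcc
Per1: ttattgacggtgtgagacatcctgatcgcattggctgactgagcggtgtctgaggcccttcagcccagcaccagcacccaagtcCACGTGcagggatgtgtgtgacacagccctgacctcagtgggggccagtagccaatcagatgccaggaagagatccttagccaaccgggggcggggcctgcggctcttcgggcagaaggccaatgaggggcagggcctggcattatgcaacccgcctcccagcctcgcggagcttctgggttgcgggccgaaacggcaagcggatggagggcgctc
Per3: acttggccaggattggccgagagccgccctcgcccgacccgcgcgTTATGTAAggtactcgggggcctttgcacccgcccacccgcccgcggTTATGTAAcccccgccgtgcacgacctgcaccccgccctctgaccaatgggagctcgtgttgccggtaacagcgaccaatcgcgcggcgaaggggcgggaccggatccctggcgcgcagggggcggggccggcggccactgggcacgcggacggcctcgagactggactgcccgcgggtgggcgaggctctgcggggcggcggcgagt

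In the Arntl window the NR1D and ROR core begins 30 bases after the first transcribed base. The Nr1d1 window has an E′-box 28 bases before the start, written on its strand as AACGTG. Per1 has an E-box 166 bases before the start, and a second Per1 window, from another transcript start, has a CREB core 132 bases before it. Per3 carries D-boxes at 205 and at 158 bases before the start. Of the windows not shown, that of Cry1 has an E-box at 60 and an E′-box at 79 bases before the start, and that of Cry2 an E′-box at 166 bases. None of the 5 motifs is in the windows of Clock, Nr1d2 or Dbp. Among all 32851 RefSeq windows of this length, 7.15% hold the E-box, 4.68% the E′-box, 0.938% the D-box, 2.61% the NR1D and ROR core and 7.51% the CREB core. A match describes the letters of the window and was not tested as a binding site.

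Arntl and Clock make up the activating arm. Arntl had 40.8, 49.5, 47.9 and 35.2 CPM in AM6545 samples A, B, C and E, and 31.9, 42.2, 43.7, 35.5 and 39.5 CPM in vehicle samples A to E. The groups overlapped, with AM6545 B highest and vehicle A lowest of the 9. The log2 fold change of Arntl, AM6545 minus vehicle, was 0.17 (SE 0.12, edgeR adjusted p = 0.706). Clock, its partner, had 22.3, 23.2, 25.8 and 28.6 CPM in the AM6545 samples and 31.0, 24.8, 31.8, 25.2 and 25.3 CPM in the vehicle samples. Vehicle A and C were the highest for Clock, AM6545 A the lowest, and the remaining vehicle samples lay inside the AM6545 range. Its log2 fold change was -0.14 (SE 0.12, edgeR adjusted p = 0.724), of opposite sign to that of Arntl. Arntl ran from 0.10 without AM6545 B to 0.26 without AM6545 E, and Clock was at -0.07 with length and GC trends removed and at -0.21 without AM6545 E.

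**Figure D1:**
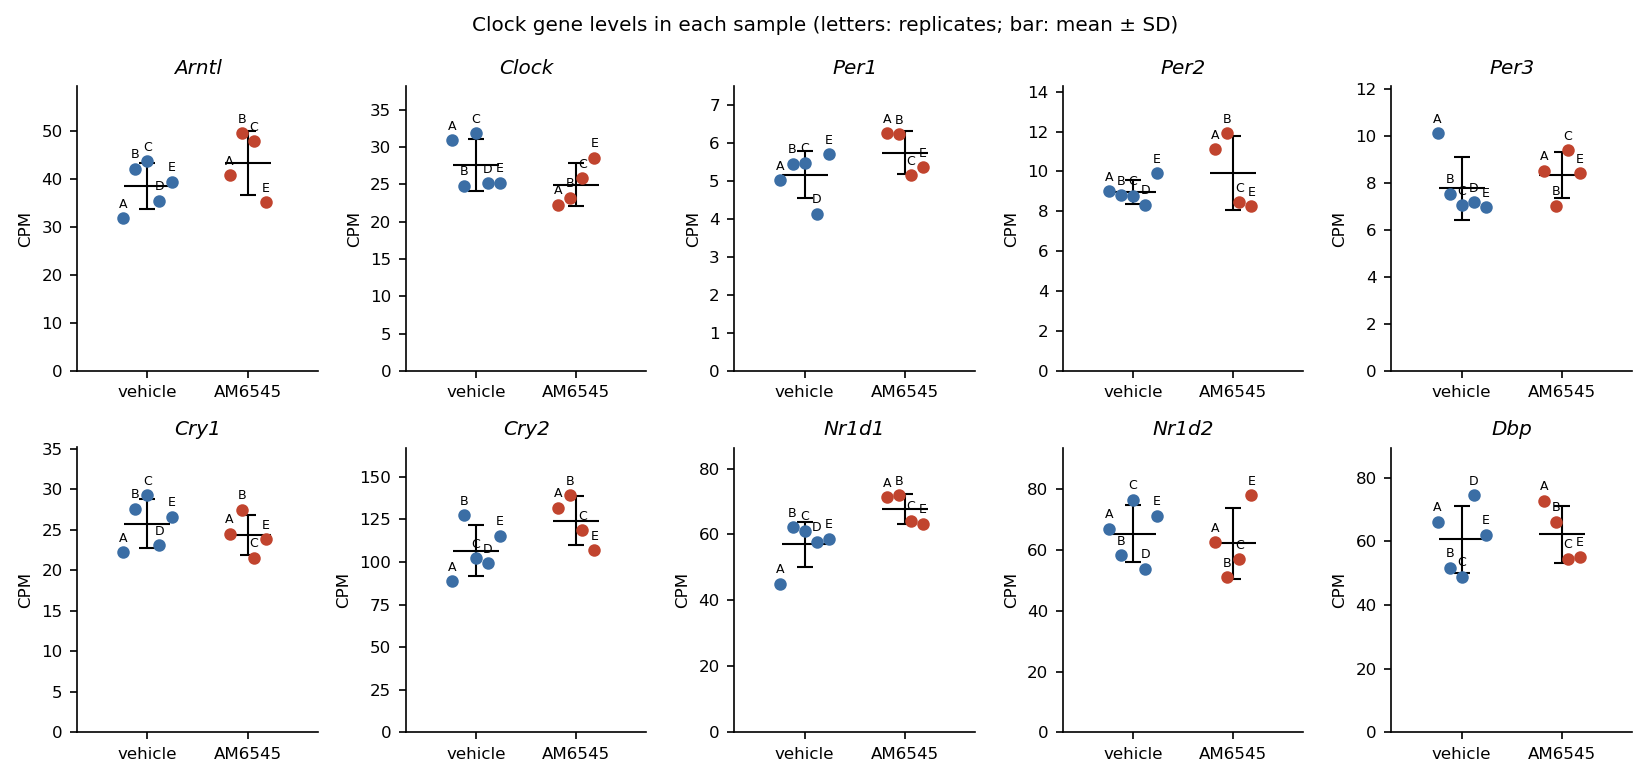
CPM (vertical axis, from 0) of each of the 10 clock genes in the 5 vehicle samples (blue) and the 4 AM6545 samples (red); letters are replicates, and bars give the group mean and SD. The groups overlap for every gene except Nr1d1, whose AM6545 samples lie from 63.3 to 72.0 CPM and whose vehicle samples lie from 45.1 to 62.1 CPM.

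The Per genes encode the repressors whose build-up ends each cycle of activation, and Per1 and Per2 also respond to neuronal activity and stress hormones. Per1 had 6.25, 6.23, 5.15 and 5.36 CPM in AM6545 samples A, B, C and E and 5.03, 5.45, 5.48, 4.14 and 5.71 CPM in vehicle samples A to E. AM6545 A and B were its highest samples and vehicle D its lowest. Per1 was the member with the fewest counts, 87 to 149 per sample. Per2 had 11.1, 11.9, 8.46 and 8.26 CPM in the AM6545 samples and 9.01, 8.82, 8.78, 8.33 and 9.92 CPM in the vehicle samples. For Per2, too, AM6545 A and B stood above every vehicle sample, while AM6545 E lay below all of them and AM6545 C above vehicle D alone. Per3, whose loss leaves the rhythm of mice largely intact, had 8.53, 7.03, 9.40 and 8.42 CPM with AM6545 and 10.1, 7.54, 7.06, 7.19 and 6.96 CPM with vehicle. Vehicle A was the highest for Per3 and stood apart from the other 4 vehicle samples. In edgeR's test the log2 fold changes were 0.15 for Per1 (SE 0.14, adjusted p = 0.762), 0.14 for Per2 (SE 0.13, adjusted p = 0.757) and 0.11 for Per3 (SE 0.14, adjusted p = 0.837). These values moved with the processing: with length and GC trends removed they were 0.012, 0.06 and 0.05, Per2 was 0.05 without AM6545 B, and Per3 was 0.04 without AM6545 C and 0.21 without vehicle A.

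CRY1 and CRY2 bind PER proteins and are the direct inhibitors of ARNTL and CLOCK. Cry1 had 24.5, 27.5, 21.5 and 23.9 CPM with AM6545 and 22.2, 27.6, 29.3, 23.1 and 26.6 CPM with vehicle. It had the smallest span of the members over the 9 samples, and its groups overlapped over most of their ranges. Cry2 had 132, 139, 119 and 107 CPM with AM6545 and 88.7, 127, 102, 99.3 and 115 CPM with vehicle. Each of the 4 AM6545 samples exceeded the vehicle mean of 107 CPM or equalled it to the digit shown, but vehicle B and E lay within the AM6545 range. The log2 fold change was -0.08 for Cry1 (SE 0.11, edgeR adjusted p = 0.837) and 0.22 for Cry2 (SE 0.12, edgeR adjusted p = 0.653). Cry2 was at 0.12 with length and GC trends removed, and Cry1 ran from -0.15 without AM6545 B to -0.03 without AM6545 C.

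NR1D1 and NR1D2 are heme-binding nuclear receptors that repress Arntl and Clock. Nr1d1 had 71.4, 72.0, 64.1 and 63.3 CPM in AM6545 samples A, B, C and E and 45.1, 62.1, 61.1, 57.8 and 58.7 CPM in vehicle samples A to E. All 4 AM6545 samples were above all 5 vehicle samples, by a gap that was small beside the ranges of the groups, and vehicle A lay far below the rest. The log2 fold change was 0.25 (SE 0.10, 95% interval 0.02 to 0.47, edgeR adjusted p = 0.653), or 1.19-fold (1.02 to 1.39). Without vehicle A, the sample with the fewest counts and the highest mitochondrial share, it was 0.18, and with each sample's trends with transcript length and GC content removed it was 0.15; in both fits Nr1d1 was no longer at an unadjusted p under 0.05, and the same held without AM6545 A (0.22), without AM6545 B (0.22) and with total counts in place of TMM (0.24). Its close relative Nr1d2 had 62.5, 51.0, 56.9 and 78.1 CPM with AM6545 and 67.0, 58.3, 76.6, 53.8 and 71.2 CPM with vehicle. The groups of Nr1d2 overlapped almost fully, and AM6545 held both its lowest and its highest sample. Its log2 fold change was -0.07 (SE 0.13, edgeR adjusted p = 0.892), so the NR1D receptors did not lie on the same side of 0.

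Dbp is a direct output of the loop, a transcription factor that acts on D-boxes such as those of Per3. It had 72.7, 66.2, 54.6 and 55.2 CPM with AM6545 and 66.2, 51.7, 48.9, 74.6 and 62.1 CPM with vehicle. Vehicle D was the highest and vehicle C the lowest of the 9, so the vehicle group alone spanned the whole range. The means were 62.2 ± 8.83 CPM (SD, n = 4) and 60.7 ± 10.5 CPM (SD, n = 5), and the log2 fold change was 0.03 (SE 0.13, 95% interval -0.25 to 0.32, edgeR adjusted p = 0.953).

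Of the 10 members, 0 passed an adjusted p of 0.05, as did 0% of all genes tested, where the smallest value was 0.653. An unadjusted p under 0.05 was reached by 1 member, Nr1d1, against 7.21% of all genes tested in either direction, 3.03% of them higher with AM6545 and 4.18% lower. By DESeq2's test, too, 1 member was at an unadjusted p under 0.05 and 0 passed the adjusted threshold. Non-overlapping groups were seen for 1 of 10 members, against 1.45% of all genes tested, 0.579% with AM6545 higher. Of the members, 7 had a log2 fold change above 0 and 3 below, with a median of 0.13, beside -0.0090 over all genes tested. With length and GC trends removed, 6 were above and 4 below, with a median of 0.03, and without AM6545 B the median was 0.07. The 95% intervals of single members reached at most 0.47 on the positive side, for Nr1d1 and Cry2, and -0.39 on the negative side, for Clock, so larger differences in either direction were outside the interval of every member.

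The clock's other parts were read from a list of 21 further genes, all of which were tested. They comprise alternative partners and relatives of ARNTL and CLOCK, the ROR activators, the kinases and ubiquitin ligases that set PER and CRY turnover, and output genes. None passed the adjusted threshold, where 0% of all genes tested did, and none was at an unadjusted p under 0.05, where 7.21% were. Of the 21, 10 lay above 0 and 11 below, beside 6996 of all 14512 genes above 0. Their median log2 fold change was -0.02, with a range from -0.16 (Fbxl21) to 0.33 (Timeless). Npas2, which can replace CLOCK in the forebrain, had 17.3 to 20.4 CPM with AM6545 and 13.8 to 24.4 CPM with vehicle, a log2 fold change of 0.14 (SE 0.15). Bhlhe41, a repressor that competes for E-boxes, had 5.53 to 7.41 CPM with AM6545 and 5.84 to 8.95 CPM with vehicle, a log2 fold change of -0.13 (SE 0.16). Tef and Hlf, the relatives of Dbp that bind the same D-boxes, had log2 fold changes of 0.01 (SE 0.10) and -0.10 (SE 0.14). Ciart, a repressor of ARNTL and CLOCK, stayed between 16.4 and 17.3 CPM with AM6545 but ran from 13.5 to 22.7 CPM with vehicle, where vehicle D was highest, as it was for Dbp.

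**Figure D2:**
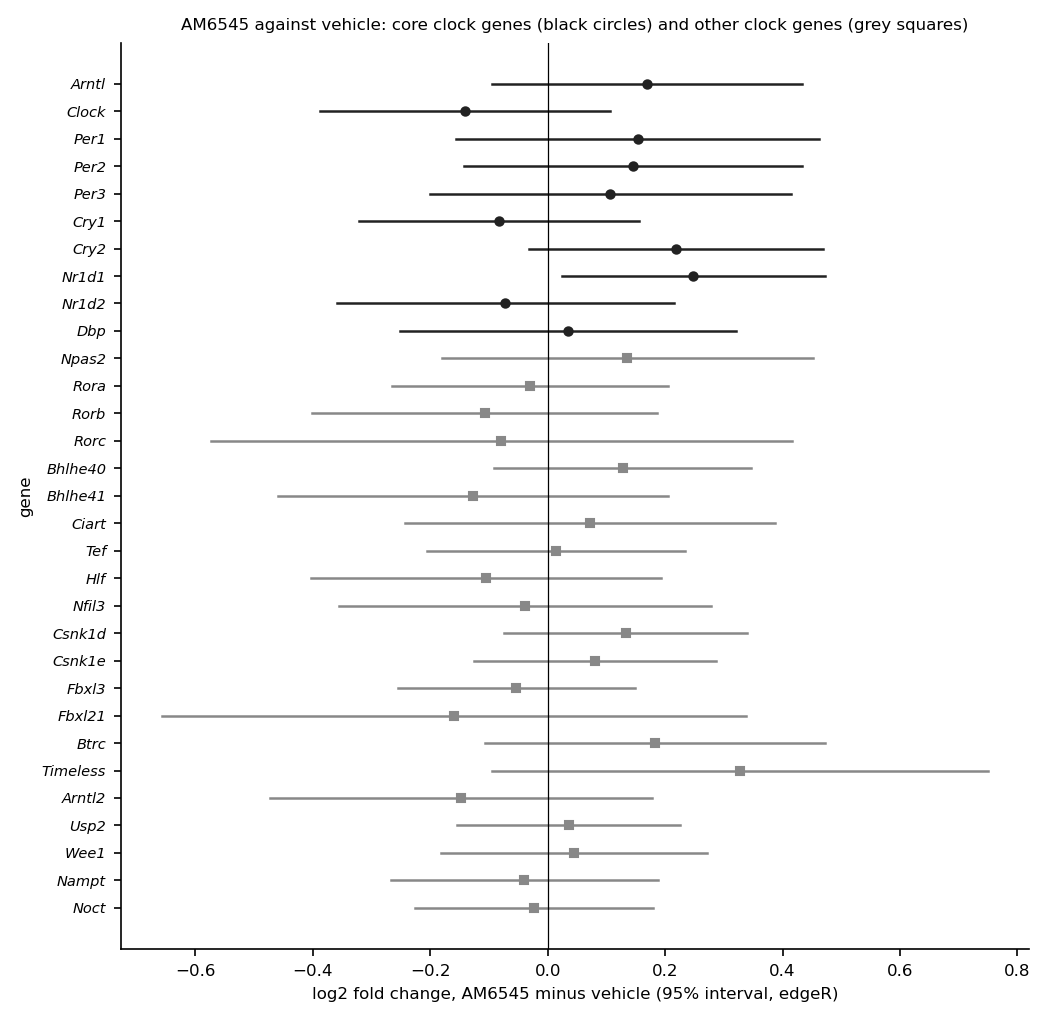
Log2 fold change, AM6545 minus vehicle, with its 95% interval from edgeR, of the 10 core clock genes (black circles) and the 21 other clock genes (grey squares). The interval of Nr1d1 (0.02 to 0.47) does not cross 0, and those of the other 30 genes do.

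Levels compared between genes need a correction for length, so counts were divided by the median length of a gene's protein-coding transcripts and scaled to the same sum in every sample (TPM, a transcript-level analogue of CPM). On that scale Dbp was the most abundant member, at 72.6 ± 10.1 TPM over the 9 samples (SD). Cry2 followed at 55.5 ± 9.19 TPM; its range over the samples, 40.3 to 68.5 TPM, overlapped in part with the 58.9 to 87.1 TPM of Dbp. Nr1d2 at 35.2 ± 6.13 TPM and Nr1d1 at 33.8 ± 5.03 TPM came next and did not differ beyond their spread. Cry1 at 23.4 ± 3.14 TPM and Arntl at 22.2 ± 3.55 TPM were likewise within each other's spread. Clock had 5.24 ± 0.645 TPM, below Arntl although the proteins work as a pair. The Per genes were the least abundant, with Per2 at 2.40 ± 0.378 TPM, Per3 at 1.98 ± 0.246 TPM and Per1 at 1.78 ± 0.258 TPM. Per3 and Per1 were within each other's spread, while the ranges of Per2 and Per3 over the samples overlapped only in part. With the longest coding transcript as the length, 6 of the 10 kept their place. Nr1d1, at 51.9 ± 8.27 TPM, then stood above Nr1d2, at 31.3 ± 5.47 TPM, and Arntl, at 31.2 ± 5.35 TPM, above Cry1, at 19.0 ± 2.73 TPM, both beyond their SDs, so the order within these pairs depends on the transcript taken.

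Reads from overlapping genes could add to some of these levels, since the counting is not stated to use strand. In the GENCODE M21 annotation, 18.0% of the exonic bases of Dbp (539 bases) lie over exons of Sphk2 on the opposite strand, and 8.55% of those of Nr1d1 (263 bases) over exons of Thra. Sphk2, a sphingosine kinase, and Thra, a thyroid hormone receptor, moved little with their neighbours over the 9 samples: Pearson's r was -0.13 for Sphk2 and Dbp (Spearman's rho -0.15; r -0.05 without the samples farthest from the median of Sphk2, AM6545 E and vehicle B) and -0.01 for Thra and Nr1d1 (rho 0.27; r -0.13 without AM6545 E and vehicle D). The log2 fold change of Thra was 0.04 (SE 0.09), beside 0.25 for Nr1d1, and that of Sphk2 was 0.23 (SE 0.15), beside 0.03 for Dbp. For Cry2 the shared bases were 4.67% (D930015M05Rik), and for Arntl 0.439% (Gm45355). All these correlations and those below were taken on log2 CPM after subtraction of the group means, and they describe 9 samples that also differ in depth and cell makeup, with no test.

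How far samples differed was read from the spread within groups. The SD of log2 CPM within groups was 0.16 for Nr1d1, the lowest of the members, and 0.23 for Nr1d2 and Dbp, the highest, beside a median of 0.20 over all genes tested. Members thus stood at percentiles 28.2 to 61.5 of all genes tested, neither unusually steady nor unusually variable. Counting error alone gives an SD of 0.13 for Per1, so its observed spread of 0.17 was only 1.26 times that. For Cry2 the observed spread was 6.50 times the counting error, for Nr1d2 6.03 times and for Dbp 5.90 times. The spread of Clock was 0.17, and 0.09 once each sample's length and GC trends were removed, which moved it from percentile 36.0 to percentile 5.64; Clock has the longest median transcript of the members.

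Read sample by sample, members did not move as one block. Relative to the mean of the 9 samples, vehicle D was below the mean for 9 of 10 members and above it for Dbp alone, at 0.30 on the log2 scale. AM6545 A and B were each above the mean for 7 members and below it for 3. Vehicle A held the largest single deviation, -0.44 for Nr1d1, along with -0.35 for Cry2, -0.34 for Arntl and 0.34 for Per3. Vehicle B and E stayed closest to the mean, with median absolute deviations of 0.08 and 0.07.

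**Figure D3:**
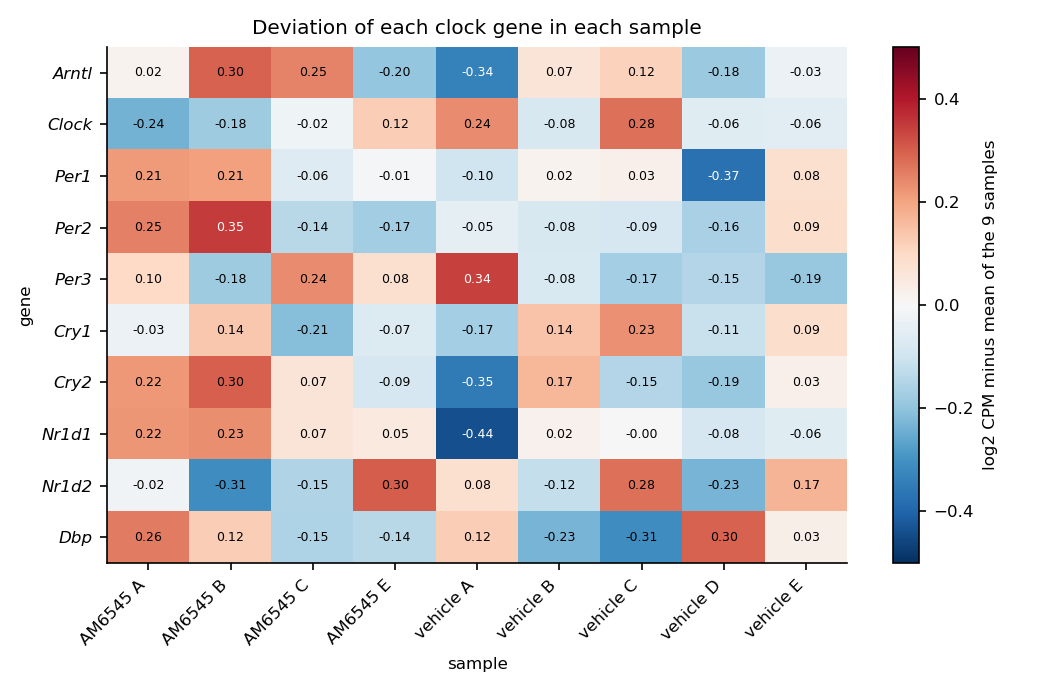
Log2 CPM of each clock gene (rows) in each sample (columns) minus that gene's mean over the 9 samples; red is above and blue below the mean, and the number in each cell is the value. Vehicle D is blue for 9 genes and red for Dbp, and the darkest cell is Nr1d1 in vehicle A, at -0.44.

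The log2 ratio of Dbp to Arntl was 0.83, 0.42, 0.19 and 0.65 in AM6545 samples A, B, C and E and 1.05, 0.29, 0.16, 1.07 and 0.65 in vehicle samples A to E. The whole range was 0.91 on the log2 scale, or 1.88-fold, and the groups overlapped, with means of 0.52 ± 0.28 (SD, n = 4) and 0.65 ± 0.42 (SD, n = 5). Vehicle held both ends of the range, C and D. The ratio of Nr1d1 to Arntl, a second phase reading, was 0.81, 0.54, 0.42 and 0.85 with AM6545 and 0.50, 0.56, 0.48, 0.70 and 0.57 with vehicle. Its range was 0.43 on the log2 scale, and vehicle A, high by the first ratio, was among the low samples by the second. The ratio of Per2 to Arntl ran from -2.49 (AM6545 C) to -1.81 (vehicle A), that of Per1 to Arntl from -3.20 (AM6545 C) to -2.64 (vehicle A), and that of Nr1d2 to Arntl from 0.04 (AM6545 B) to 1.15 (AM6545 E). AM6545 C was lowest by 3 of the 5 ratios and near the bottom by the others, while the sample at the top was vehicle A, vehicle D or AM6545 E, depending on the ratio.

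The order of samples by the ratio of Dbp to Arntl ran with markers of the choroid plexus, the secretory epithelium in the ventricle next to the hippocampus. The 8 markers (Ttr, Folr1, Kl, Clic6, Kcne2, Otx2, Aqp1 and Slc4a5) summed to 695, 544, 60.9 and 937 CPM in AM6545 samples A, B, C and E and to 4012, 309, 48.0, 4345 and 2148 CPM in vehicle samples A to E. Aqp1 was at 0 counts in vehicle C, and no other marker of the list was at 0 in any sample. Within vehicle the samples took the same order by the ratio as by the marker sum, from C through B, E and A to D. Within AM6545 the order differed only in that A and E changed places. Over the 9 samples the mean level of the list correlated with the log2 ratio of Dbp to Arntl at r = 0.91 (Spearman's rho 0.93; r = 0.85 without AM6545 C and vehicle C, the samples farthest from the median). For Dbp alone r was 0.77 (rho 0.78; 0.58 without those samples) and for Arntl alone -0.75 (rho -0.82; -0.70). All 8 markers had log2 fold changes below 0, with a median of -1.39. Of them 1, Folr1, was at an unadjusted p under 0.05, where 4.18% of all genes tested were lower with AM6545. The part of choroid plexus RNA in the ratio was not tested, and in bulk samples fewer cells of a type and less RNA per cell cannot be told apart.

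**Figure D4:**
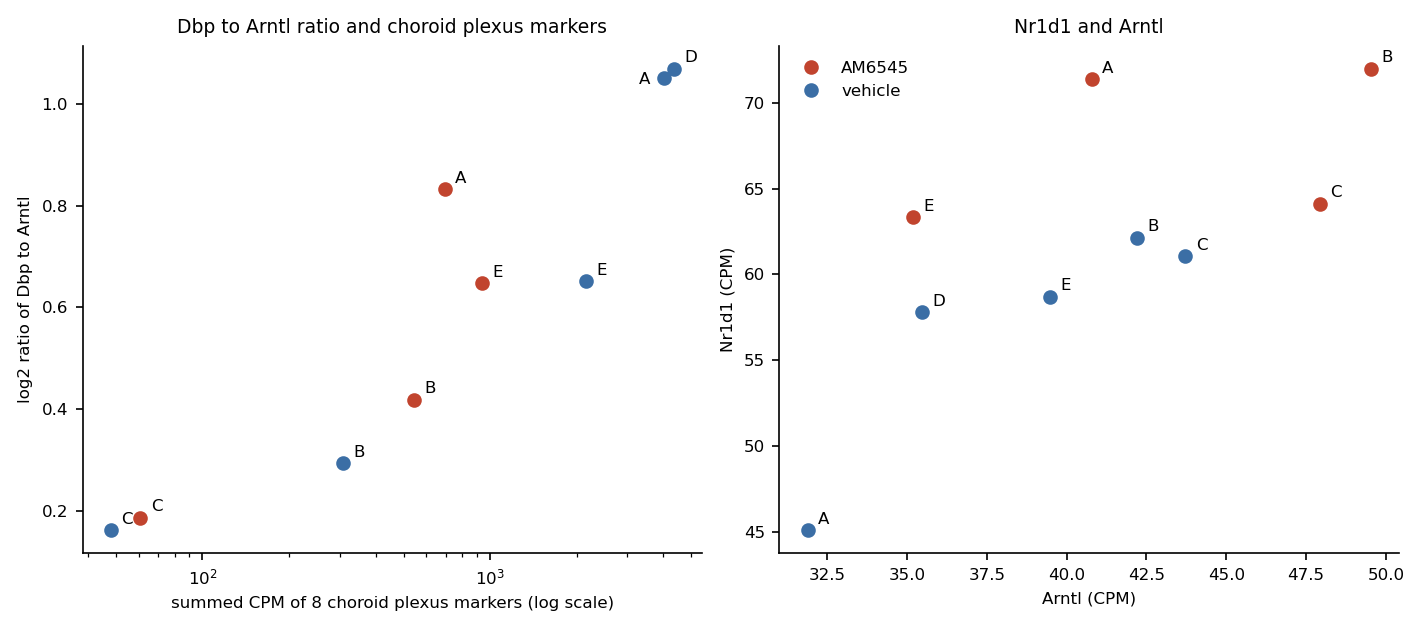
Left, log2 ratio of Dbp to Arntl (vertical) against the summed CPM of 8 choroid plexus markers (horizontal, log scale) in each sample; right, Nr1d1 against Arntl in CPM, on axes that do not start at 0; red is AM6545, blue is vehicle, and letters are replicates. The ratio is lowest in the C samples of both groups (0.16 and 0.19) and highest in vehicle A and D (1.05 and 1.07), the samples with the largest marker sums; on the right, vehicle A is the lowest sample and AM6545 B the highest for both genes.

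Other cell types were read from the same libraries. Ependymal markers, from the ciliated lining of the ventricle, were likewise highest in vehicle A, D and E: their 6 genes summed to 15.4 to 18.2 CPM with AM6545 and 15.2 to 36.2 CPM with vehicle, all 6 had log2 fold changes below 0, and 3 were at an unadjusted p under 0.05 and lower with AM6545, beside 4.18% of all genes tested. Their mean level correlated with Dbp at r = 0.79 (rho 0.78) and with Arntl at r = -0.72 (rho -0.75). Oligodendrocyte markers, 6 genes that summed to 13099 to 18815 CPM with AM6545 and 10736 to 22474 CPM with vehicle, correlated with Cry1 at r = -0.85 (rho -0.90) and with Nr1d1 at r = -0.73 (rho -0.77). Markers of neurons, the cells that form the synaptic terminals, summed to 7712 to 8597 CPM with AM6545 and 7297 to 9556 CPM with vehicle. Of their 10 genes, 8 had log2 fold changes above 0 and 2 below, beside 6996 of all 14512 genes above 0. Grin1 (log2 fold change 0.41, SE 0.13) was the 1 neuron gene at an unadjusted p under 0.05, where 3.03% of all genes tested were higher with AM6545. Astrocyte markers (7 genes, 2415 to 3131 CPM and 2202 to 3353 CPM), microglial markers (6 genes, 501 to 641 CPM and 362 to 601 CPM) and endothelial markers (6 genes, 58.6 to 73.4 CPM and 47.6 to 102 CPM) were present in every sample. At an unadjusted p under 0.05 were 1 microglial gene (Tmem119, higher, groups not overlapping), 1 endothelial gene (Slco1a4, lower), and 0 astrocyte and 0 oligodendrocyte genes. Of all genes tested, 3.03% were higher and 4.18% lower at that p, and 0.579% had non-overlapping groups with AM6545 higher. None of the marker genes was past the adjusted threshold by edgeR, and the part of any of these cells in the clock values was not tested.

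Pairs of members were set against the loop. Of the 45 pairs, 22 correlated positively and 23 negatively over the 9 samples, with r from -0.86 (Per3 and Nr1d1) to 0.80 (Cry2 and Nr1d1). Vehicle A was far from the rest for both Per3 and Nr1d1, and without it their r was -0.50. Without vehicle A, 41 of the 45 kept their sign, and 43 did when length and GC trends were removed. Both checks keep most of the data. Without the samples farthest from the median of the first gene of a pair, some signs turned. Arntl and Clock went from -0.30 to 0.56, Per1 and Nr1d2 from 0.24 to -0.49, and Per2 and Nr1d2 from -0.28 to 0.51. Others stayed, such as Cry2 and Nr1d1 at 0.78. Arntl and Nr1d1, which peak at opposite times in a running clock, correlated positively at r = 0.68 (rho 0.70); r was 0.52 without vehicle A and 0.12 without AM6545 E and vehicle A, so that the size of the relation rested on those samples. Arntl and Dbp, also opposite in phase, correlated at r = -0.41 (rho -0.47), and at -0.80 without AM6545 E and vehicle A.

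The repressors held together only in part. Per1 and Per2 correlated at r = 0.73 (rho 0.80), Per1 and Cry1 at 0.74 (rho 0.62), and Cry2 with Nr1d1 at 0.80 (rho 0.87), values that were 0.73, 0.84 and 0.78 without vehicle A. Per3 went the other way from the other Per and Cry genes, at r = -0.30 with Per1, -0.39 with Per2, -0.76 with Cry1 and -0.61 with Cry2, but not from Nr1d2 (0.16). Without vehicle A, the highest sample for Per3, r was -0.41, -0.70, -0.66 and -0.30 with those 4 genes. The NR1D receptors correlated at -0.23 (rho -0.25). Clock correlated with Nr1d2 at 0.67 (rho 0.62) and with Cry2 at -0.77 (rho -0.53), which with length and GC trends removed were 0.38 and -0.54.

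**Figure D5:**
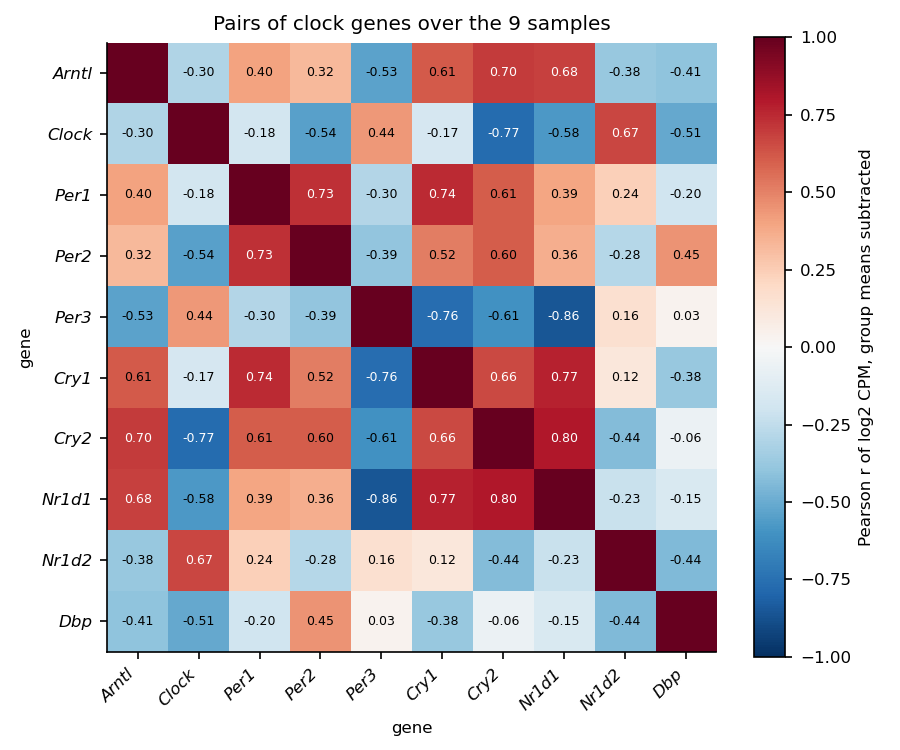
Pearson's r of log2 CPM for each pair of the 10 clock genes over the 9 samples, after the group means were subtracted; red is positive and blue negative, and each cell gives r. Cry1, Cry2, Nr1d1 and Arntl form a block of positive values from 0.61 to 0.80 (from 0.45 to 0.78 without vehicle A). Per3 is negative with each of these genes, from -0.86 to -0.53 (from -0.66 to -0.19 without vehicle A). Without AM6545 E and vehicle A, which is not drawn, Arntl is at 0.12 with Nr1d1, 0.25 with Cry2 and 0.54 with Cry1.

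The genes whose pattern over the samples was most like that of Dbp were not clock genes. They were Mtr (methionine synthase, r = 0.99), Ptpn18 (a tyrosine phosphatase, 0.98), Chia1 (a chitinase, 0.95), Vwa5b1 (0.95) and Tmem238 (0.93). Most unlike it were Insig1 (a regulator of sterol synthesis, -0.96), Lrfn2 (a synaptic adhesion protein, -0.95) and Ndst3 (a heparan sulfate enzyme, -0.94). Most of these are low: Ptpn18 had 0.644 to 2.07 CPM and Vwa5b1 0.386 to 1.86 CPM over the 9 samples. For Arntl the most like were Dnah9 (a dynein of cilia, 0.95), Ehd3 (an endocytic protein, 0.95), Ears2 (a mitochondrial tRNA synthetase, 0.95), Thpo (thrombopoietin, 0.94) and Cap1 (an actin regulator, 0.94). Most unlike Arntl were Sinhcaf (-0.96), Rnaset2a (an RNase, -0.95) and Mr1 (an antigen-presenting molecule, -0.94). By Spearman's rho, 2 of the 5 most like Dbp and 0 of the 5 most like Arntl were the same genes, so these neighbours depend on the measure. Among 14512 genes ranked from most to least like Dbp, Ciart stood at rank 863 (r = 0.65; 0.19 without vehicle C and D), Per2 at rank 2246, Hlf at rank 12358 and Tef at rank 12783. The choroid plexus marker Ttr, which carries thyroid hormone and retinol, stood at rank 191 (r = 0.80).

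Neuronal activity, stress hormones and temperature also act on clock genes, so lists of their responding genes were read in the same way. Immediate early genes, which report recent activity, summed to 328 to 407 CPM with AM6545 and 327 to 444 CPM with vehicle. Of these genes, 0 of 11 were at an unadjusted p under 0.05, beside 7.21% of all genes tested. There were 5 above 0 and 6 below, beside 6996 of all 14512 genes above 0. Fos, 1 of them, had a log2 fold change of -0.13 (SE 0.19). The mean level of the list correlated with Per1 at r = 0.85 (rho 0.83) and with Per2 at 0.77 (rho 0.67), but with Per3 at -0.40 (rho -0.48). It was also positive with Cry1 at 0.65 (rho 0.53), Arntl at 0.60 (rho 0.63), Cry2 at 0.54 (rho 0.52) and Nr1d1 at 0.41 (rho 0.37). With the remaining members, Clock, Nr1d2 and Dbp, r was -0.20, 0.09 and -0.07.

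Of 12 genes induced by glucocorticoids, 1 was at an unadjusted p under 0.05 with higher levels under AM6545 and 2 with lower, beside 3.03% and 4.18% of all genes tested. In all, 3 of the 12 lay above 0 and 9 below, beside 6996 of the 14512 genes above 0. Fkbp5, a chaperone of the glucocorticoid receptor, had 41.5, 41.9, 39.3 and 35.6 CPM with AM6545 and 29.6, 38.1, 33.7, 28.6 and 34.2 CPM with vehicle. Only vehicle B lay inside the AM6545 range, and the log2 fold change was 0.27 (SE 0.10, edgeR adjusted p = 0.653). Fkbp5 correlated with Per1, another glucocorticoid target, at r = 0.77 (rho 0.72, and r 0.54 without AM6545 E and vehicle D). A near-equal value, r = 0.75 (rho 0.63), was seen for Fkbp5 with Arntl, and -0.37 (rho -0.30) with Dbp. Over all 12 genes of the list, the mean level correlated with Per1 at r = -0.07 (rho 0.23). With Nr1d1 it was at -0.81 (rho -0.53) and with Per3 at 0.74 (rho 0.37). Vehicle A, far from the other vehicle samples for both Nr1d1 and Per3, also had the highest sum of the list, 1188 CPM. The sums were 834 to 903 CPM in the other vehicle samples and 806 to 863 CPM with AM6545. How far these r values rest on vehicle A was not tested. Mt1, a metallothionein, and Nfkbia, an inhibitor of NF-kappaB, had log2 fold changes of -0.47 (SE 0.20) and -0.23 (SE 0.11), and Sgk1, a kinase, -0.12 (SE 0.11), so members of the list differed in sign.

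The temperature list holds cold-induced and heat shock genes, since body temperature is a signal that keeps clocks of different tissues in step. Cirbp and Rbm3, the cold-induced RNA-binding proteins, had log2 fold changes of -0.08 (SE 0.12) and -0.21 (SE 0.12). Hspa1a, the inducible HSP70, had 40.1, 52.3, 33.6 and 21.1 CPM with AM6545 and 17.9, 25.9, 21.8, 22.4 and 24.9 CPM with vehicle, a log2 fold change of 0.70 (SE 0.20, edgeR adjusted p = 0.653). AM6545 A, B and C stood above all vehicle samples and AM6545 E among the lowest. Its near-identical copy Hspa1b had the same value, 0.70 (SE 0.21), and reads cannot be divided between them with certainty. Hspa1a correlated with Per2, which is known to respond to heat shock factor, at r = 0.78 (rho 0.73), and at 0.41 without AM6545 B and E. The relation was not particular to Per2, since Hspa1a was at r = 0.74 with Arntl (rho 0.58), though at 0.25 with Dbp (rho 0.12). For the mean level of the 8 temperature genes, r was 0.69 with Per2 and Cry2, 0.68 with Arntl and 0.60 with Nr1d1. It was -0.75 with Clock, -0.69 with Nr1d2 and -0.53 with Per3, and 0.39, 0.33 and 0.28 with Dbp, Cry1 and Per1.

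As background to these values, libraries held 17628922 (vehicle A) to 27263393 (vehicle B) counts, and mitochondrial transcripts took 4.06% (vehicle E) to 7.90% (vehicle A) of them. Fmr1, the gene targeted in all animals, was counted in every sample, at 9.45 to 11.1 CPM with AM6545 and 10.3 to 13.3 CPM with vehicle (log2 fold change -0.22, SE 0.11, edgeR adjusted p = 0.653). With no wild-type sample, that level has no reference here.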

How the data were processed

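RNA of hippocampal synaptoneurosomes was sequenced on an Illumina NovaSeq from SMARTer Ultra Low Input libraries, per the labels' protocols. The authors deposited 1 table of estimated counts per gene, not scaled between samples; the submitters' processing notes name Salmon 1.3 and DESeq2 1.30, and the builds GRCm39 and mm10 with no role, so the only coordinates given are those of RefSeq promoter windows, on their own build. Strand setting and annotation are not given in the sources used here. Symbols, transcript lengths, GC content and exon overlaps came from GENCODE M21, and 22155 of 22255 identifiers matched.

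Estimated counts were rounded to whole numbers. Genes were filtered with filterByExpr, libraries scaled with TMM, and groups compared with edgeR 4.0.16 (R 4.3.3) by its quasi-likelihood test, p-values being adjusted (Benjamini-Hochberg) over all 14512 genes tested and a threshold of 0.05. Log2 CPM used a prior count of 2. Every pair of samples differed by more than sampling noise, with 10.3 to 93.3 as chi-square over its degrees of freedom. The members and lists were chosen with earlier results of these data known.

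Text names all 10 members; Npas2, Bhlhe41, Ciart, Tef, Hlf and any of the other clock genes at an unadjusted p under 0.05; the 5 genes most like and the 3 most unlike Dbp and Arntl by Pearson's r; Fkbp5, Sgk1, Fos, Cirbp, Rbm3, Hspa1a and any of their lists at an unadjusted p under 0.05; and Fmr1. Fbxl21, Timeless, Folr1, Ttr, Tmem119, Slco1a4 and Grin1 were named after their values were seen. Alternatives were other size factors and filters, edgeR robust estimation, DESeq2 1.42.0, limma-voom (limma 3.58.1) with and without sample weights, the title letter as a block, removal of length and GC trends (lowess, span 0.3), and each sample left out.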

Additional observations from a re-analysis of the deposited data

Results flagged for a closer look

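In 3 cases a single vehicle sample lay apart from the other 4 by more than a Dixon test at the 95% level allows; 52 groups of values were looked at, of which chance flags 2.6. Per3 was at 10.1 CPM in vehicle A, against 6.96 to 7.54 CPM in the others (the gap was 0.817 of the range). Nr1d1 was at 45.1 CPM in vehicle A, against 57.8 to 62.1 CPM (0.747 of the range). Ciart was at 22.7 CPM in vehicle D, against 13.5 to 15.8 CPM (0.750 of the range). Vehicle A had the fewest counts, 17628922, and the largest mitochondrial share, 7.90%, and vehicle D the largest choroid plexus sum, 4345 CPM.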

How the results depend on the processing

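No clock member and no other clock gene passed the adjusted threshold in any of the 19 alternatives run. Of all genes, 0 passed in 18 of them, and 1 without AM6545 A; leaving out 1 sample gave 0 to 1. The main test left 1047 genes at an unadjusted p under 0.05, against 653 with length and GC trends removed, 1823 by limma-voom with sample weights, and 496 (without vehicle A) to 1848 (without AM6545 E) with 1 sample left out. The 1 member at that p became 0 with length and GC trends removed, with total counts and with the replicate block by title letter, 2 by limma-voom with sample weights, and 0 (without AM6545 A, AM6545 B or vehicle A) to 3 (without AM6545 E) with 1 sample left out. Groups that did not overlap went from 1 member to 0 with trends removed. Nr1d1 kept its direction in all 19, at 0.15 to 0.28, with adjusted p from 0.348 to 0.920, and was at an unadjusted p under 0.05 in 13. Its log2 fold change was 0.26 with the replicate block. Same-letter samples of the 2 groups correlated at -0.02 to 0.34 and others at -0.28 to 0.35, so letters were not taken as pairs. Members whose log2 fold change turned were Nr1d2, 0.012 without AM6545 B (-0.20 to 0.012 with 1 sample left out), and Dbp, -0.023 with trends removed and -0.049 to 0.12 with 1 sample left out, where it was -0.049 without AM6545 A, -0.012 without vehicle B and -0.034 without vehicle C. The cause was not tested. The range of the log2 ratio of Dbp to Arntl was 0.85 to 0.91. The longest transcript for the order of levels and the pairs without vehicle A were chosen after seeing the data. So were the correlations given without their farthest samples. These are the choroid plexus list with Dbp, Arntl and their ratio, Hspa1a with Per2, Fkbp5 with Per1, and Ciart with Dbp. They also include Arntl with Nr1d1 and with Dbp, Thra with Nr1d1, and Sphk2 with Dbp. For Per1, at 87 to 149 counts, counting error limits what can be seen.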
